A study of Homo sapiens with 6 samples.

Results

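The 10 genes described here are transcribed when the kinase ERK is active and most of their products then restrain the same pathway. They are the phosphatase genes DUSP4, DUSP5 and DUSP6, the Sprouty genes SPRY2 and SPRY4, the Sprouty-related genes SPRED1 and SPRED2, the transcription factor genes ETV4 and ETV5, and PHLDA1. They were picked out of the table by gene symbol, as known members of the pathway, with earlier results of these data known. All 10 were found among the 61806 genes of the table, and all 10 passed the filter on low counts that left 15451 genes for testing. RNA-seq libraries came from BEAS-2B, a line of human bronchial epithelial cells immortalised with viral genes, in 3 libraries of cells treated with 15-KETE and 3 libraries of control cells, numbered 1 to 3 in each group. 15-KETE is a ketone made in cells by oxidation of arachidonic acid. The dose, the exposure time and the treatment of the control cells are not in the labels. The labels do not say whether the numbered replicates were separate cultures, so a p-value here measures the spread between these libraries, which may be technical.

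ERK is the last kinase of a cascade that runs from growth factor receptors through RAS, RAF and MEK. Active ERK enters the nucleus and raises transcription of a small set of genes that feed back on the cascade, so their mRNA is widely read as a record of recent ERK activity. The DUSP products remove phosphates from ERK itself, Sprouty and SPRED proteins act further up at the step from receptor to RAS and RAF, and ETV4 and ETV5 carry the signal on to other genes. In airway epithelium the cascade follows EGFR ligands and takes part in proliferation and repair. Phosphorylated ERK was not among the measurements, which are RNA levels only.

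The library totals ran from 16844781 to 22876808 counts, of which the 10 genes took between 11858 and 19365, or 0.0664% to 0.0847%. Control replicate 2 stood apart: the median summed exon length over its counts was 4777 bases, against 5529 to 6118 bases in the other 5 libraries, and its scaling factor was 0.851, against 0.990 to 1.05. Of 7 epithelial markers, the keratins KRT7, KRT18 and KRT8 averaged 231, 111 and 51.3 FPKM over the 6 libraries and KRT5 1.54 FPKM. EPCAM, CDH1 and KRT19 were below 1 FPKM, at 0.527, 0.692 and 0.490. Of the keratins of simple epithelium, the cells thus held KRT7, KRT18 and KRT8 but little KRT19. The 7 epithelial markers summed to 248.5 to 526 FPKM in 15-KETE libraries and 290 to 735 FPKM in control libraries. The summed blood, endothelial and fibroblast markers stayed at or below 8.63, 0.17 and 3.76 FPKM in every library, and CD14 and COL1A1 made up nearly all of the blood and fibroblast sums. PTPRC, CD3E, LYZ, VWF, CDH5, PDGFRA and DCN were each at or near 0.

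The promoters of DUSP6, SPRY2 and PHLDA1, genes that were lowest in both replicate 1 libraries, are shown beside that of SPRED2, which was not. Each is the 250 bases before the RefSeq start in GRCh38.p14, all on the minus strand and written 5′ to 3′: chr12:89352502-89352751 for DUSP6, chr13:80341127-80341376 for SPRY2, chr12:76031777-76032026 for PHLDA1 and chr2:65432600-65432849 for SPRED2. Capitals mark matches, on either strand, to the cyclic AMP response half-site TGACG or to the GC box GGGCGG, and the windows of DUSP6 and SPRED2 held neither. GC content was 57.2% for DUSP6, 70.4% for SPRY2, 70.4% for PHLDA1 and 58.8% for SPRED2.
DUSP6: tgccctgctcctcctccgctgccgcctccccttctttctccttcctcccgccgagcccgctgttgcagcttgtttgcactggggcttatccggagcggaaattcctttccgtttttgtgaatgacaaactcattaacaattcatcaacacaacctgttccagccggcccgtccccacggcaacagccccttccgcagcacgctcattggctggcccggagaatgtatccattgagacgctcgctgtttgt
SPRY2: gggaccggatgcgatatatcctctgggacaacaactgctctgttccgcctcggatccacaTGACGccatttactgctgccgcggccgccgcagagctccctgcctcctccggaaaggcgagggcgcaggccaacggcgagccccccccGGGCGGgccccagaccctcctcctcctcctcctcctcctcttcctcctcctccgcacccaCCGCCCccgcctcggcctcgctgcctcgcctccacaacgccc
PHLDA1: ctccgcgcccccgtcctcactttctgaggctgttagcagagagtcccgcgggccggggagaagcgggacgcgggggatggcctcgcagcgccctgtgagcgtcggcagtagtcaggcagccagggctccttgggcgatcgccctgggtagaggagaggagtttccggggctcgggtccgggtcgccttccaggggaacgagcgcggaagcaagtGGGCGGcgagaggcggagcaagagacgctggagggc
SPRED2: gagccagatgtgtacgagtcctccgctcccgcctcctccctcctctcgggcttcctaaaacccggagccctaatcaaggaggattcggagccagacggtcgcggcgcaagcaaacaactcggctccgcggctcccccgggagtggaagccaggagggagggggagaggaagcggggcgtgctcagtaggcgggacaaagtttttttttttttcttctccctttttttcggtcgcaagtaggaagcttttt
RefSeq windows were matched for 6 of the 10 genes, which add SPRY4 and SPRED1 to these. SPRY2 had 3 windows and SPRED2 had 2, of which the nearest to the 5′ end of the counted gene was used. The start used for SPRY4 lay 2208 bases from that end and that of SPRED2 38 bases, against 0 for the others. Of the 6 windows, 2 held the half-site, in SPRY2 and SPRY4, and 21.2% of the 35116 windows of all genes did. The GC box was in 4 of 6 windows, in SPRY2, SPRY4, SPRED1 and PHLDA1, against 42.6% of all windows. None of the 6 held the ETS site CCGGAAG, the AP-1 site TGANTCA, the full response element TGACGTCA, the TATA box TATAAA, the E-box CACGTG or a CArG box, which occurred in 8.52%, 6.57%, 1.65%, 10.7%, 6.34% and 1.16% of all windows. These counts say only which letters lie in the 250 bases. DUSP4, DUSP5, ETV4 and ETV5 are named here without a sequence.

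All 10 genes were expressed in BEAS-2B cells. Deposited FPKM values, which correct for exon length and library total, placed the members above 63.3% to 90.9% of the 18571 genes with a value above 0 in every library. DUSP5 was highest with 26.3 ± 7.11 FPKM (mean ± SD over 6 libraries, as in the next values), followed by DUSP6 with 21.4 ± 6.59 and DUSP4 with 17.6 ± 5.56 FPKM. ETV4 and ETV5 had 15.8 ± 2.12 and 15.7 ± 3.18 FPKM. SPRY2, PHLDA1, SPRED2 and SPRED1 had 13.3 ± 4.75, 13.2 ± 3.34, 12.9 ± 3.03 and 10.97 ± 2.32 FPKM, and SPRY4 was lowest at 5.49 ± 1.10 FPKM. Neighbours in this order differed by less than the larger of their SDs, with the exception of SPRED1 and SPRY4, whose ranges of 7.84 to 13.5 and 3.67 to 6.79 FPKM did not overlap. SPRY4 was last in 6 of 6 libraries, while DUSP5 was first in 4 and DUSP6 in 2.

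**Figure D1:**
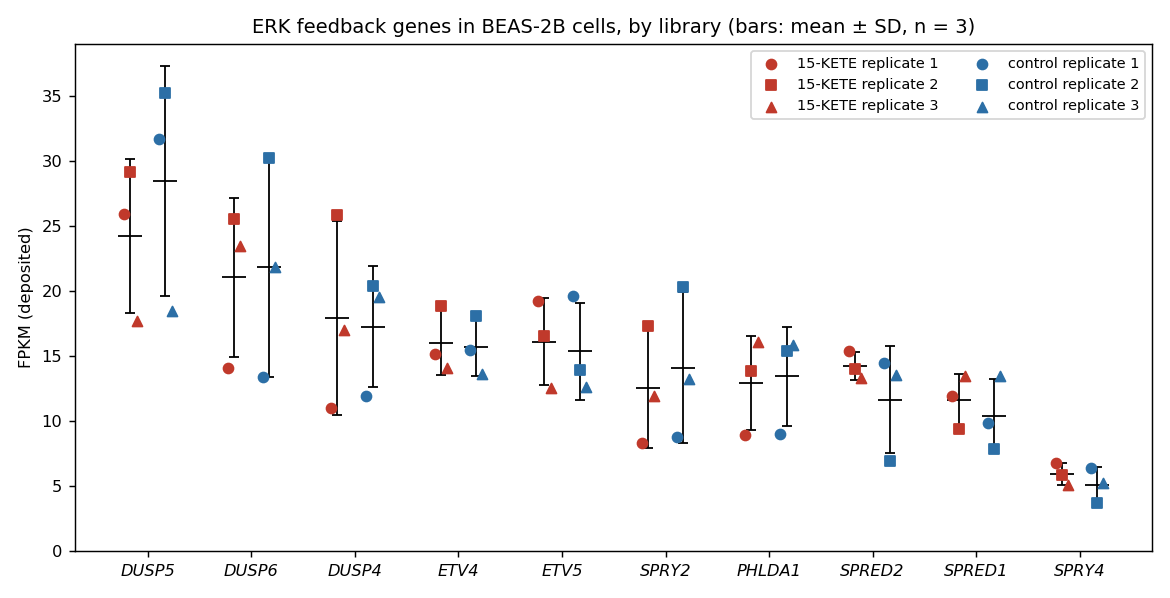
Deposited FPKM (vertical axis) of the 10 genes in each of the 6 libraries, with 15-KETE libraries in red left of control libraries in blue, symbols by replicate number, and mean ± SD of 3 libraries. The groups overlap for each gene, and same-shaped symbols often sit at similar heights in both colours, as at 14.1 and 13.4 FPKM for DUSP6 in replicate 1.

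The comparison of 15-KETE with control asks whether the metabolite changes transcript levels in airway epithelial cells. None of the 10 genes differed between 15-KETE and control cells by edgeR's quasi-likelihood test (0 of 10 at an adjusted p below 0.05, adjusted p = 0.9996 for each), where 0% of the 15451 genes were called. At an unadjusted p below 0.05 there were 0 of 10, against 0.162% of all genes. Where no gene differs, a share near 0.05 would pass, so this fit was conservative and had little power to show a difference. It leaves differences between replicate numbers in the spread, and a fit with the number as a block is given below. DESeq2 and limma-voom likewise called 0 genes, with 31 and 32 of all genes at an unadjusted p below 0.05. In all 10 genes the 3 values of one group overlapped those of the other, while the groups did not overlap for 2.3% of all genes. In bulk RNA, fewer cells expressing a gene and less RNA per cell cannot be told apart. The members' log2 fold changes ran from -0.34 to 0.24 with a median of -0.05, against -0.00177 over all genes tested. Without control replicate 2 the members' median was 0.0609.

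DUSP4, a nuclear phosphatase of ERK and other MAP kinases (ENSG00000120875, chromosome 8, 29333064 to 29350684), had 76.6, 189.7 and 118 CPM (counts scaled to library size, with TMM factors) in 15-KETE replicates 1, 2 and 3. In control replicates 1, 2 and 3 it had 84.2, 174 and 135 CPM. Both groups ran low in replicate 1 and high in replicate 2. The log2 fold change was -0.04 ± 0.385 (SE), with a 95% interval of -0.91 to 0.83.

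DUSP5, a nuclear phosphatase selective for ERK (ENSG00000138166, chromosome 10, 110497907 to 110511533), had 63.0, 74.6 and 42.6 CPM in 15-KETE replicates 1 to 3, against 78.1, 105 and 44.7 CPM in control replicates 1 to 3. Its value was lower in 15-KETE in each of the 3 same-numbered pairs, by log2 differences of -0.31, -0.49 and -0.07, yet the groups overlapped. The log2 fold change of -0.34 ± 0.355 (SE, edgeR adjusted p = 0.9996) became -0.03 without control replicate 2.

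DUSP6, the cytoplasmic ERK phosphatase (ENSG00000139318, chromosome 12, 89347235 to 89352501), had 52.1, 99.6 and 86.2 CPM in 15-KETE replicates 1 to 3, against 50.2, 137 and 80.4 CPM in the controls. Replicate 1 was lowest and replicate 2 highest in both groups. The log2 fold change was -0.17 ± 0.396 (SE), and without control replicate 2 it was 0.28. An unnamed gene on the opposite strand overlaps DUSP6 and held 2.82% as many counts.

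SPRY2, a Sprouty inhibitor of receptor tyrosine kinase signalling (ENSG00000136158, chromosome 13, 80335976 to 80341126), had 25.5, 56.3 and 36.4 CPM in 15-KETE replicates 1 to 3, against 27.4, 76.6 and 40.5 CPM in the controls. The order of replicates was the same in both groups, and all 3 pair differences were below 0, at -0.10, -0.44 and -0.15. Its log2 fold change was -0.29 ± 0.424 (SE), but 0.22 without control replicate 2. The related SPRY4 (ENSG00000187678, chromosome 5, 142310427 to 142326455) had 42.7, 38.5 and 31.8 CPM in 15-KETE libraries and 40.5, 28.3 and 32.9 CPM in controls. These ranges overlap, with a log2 fold change of 0.15 ± 0.255 (SE).

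SPRED1, which brings the RAS inactivator neurofibromin to the membrane (ENSG00000166068, chromosome 15, 38252836 to 38357249), had 88.3, 73.7 and 99.3 CPM in 15-KETE replicates 1 to 3 and 73.8, 71.5 and 99.8 CPM in the controls. Its highest CPM was 1.40 times its lowest, and it had a log2 fold change of 0.09 ± 0.256 (SE). SPRED2 (ENSG00000198369, chromosome 2, 65310851 to 65432637), its close relative, had 81.3, 78.0 and 69.6 CPM in 15-KETE libraries, against 77.4, 44.9 and 71.0 CPM in controls. Control replicate 2 alone was low, and the log2 fold change of 0.24 ± 0.273 (SE), the highest of the 10, became 0.04 without it.

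ETV4 and ETV5 encode ETS-family factors of the PEA3 group. ETV4 (ENSG00000175832, chromosome 17, 43527844 to 43579620) had 50.9, 66.9 and 47.2 CPM in 15-KETE replicates 1 to 3 and 52.8, 74.5 and 45.6 CPM in control replicates, with a log2 fold change of -0.07 ± 0.279 (SE). Its extent overlaps DHX8 on the opposite strand, which held 10436 counts against 6504 of ETV4, and without the strand setting of the counting their shared reads cannot be told apart. ETV5 (ENSG00000244405, chromosome 3, 186046314 to 186110318) had 106, 96.5 and 68.9 CPM in 15-KETE libraries and 109.8, 94.4 and 69.3 CPM in controls. The same-numbered values nearly coincided, and the log2 fold change was -0.0099 ± 0.281 (SE), the closest to 0 of the 10.

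PHLDA1, a pleckstrin-homology-like protein whose mRNA follows ERK (ENSG00000139289, chromosome 12, 76025447 to 76031776), had 50.5, 82.6 and 90.2 CPM in 15-KETE replicates 1 to 3, against 51.9, 107 and 89.3 CPM in control replicates. Both replicate 1 libraries were low, and the log2 fold change was -0.15 ± 0.341 (SE). Of the 10 genes, 3 had log2 fold changes above 0, SPRY4, SPRED1 and SPRED2, and 7 below, where 50.2% of all genes were below 0. Without scaling of the libraries, DUSP4, ETV4 and ETV5 also lay above 0, where the median over all genes was 0.0720. With a correction for exon length SPRED1 lay below 0 and ETV4 above.

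**Figure D2:**
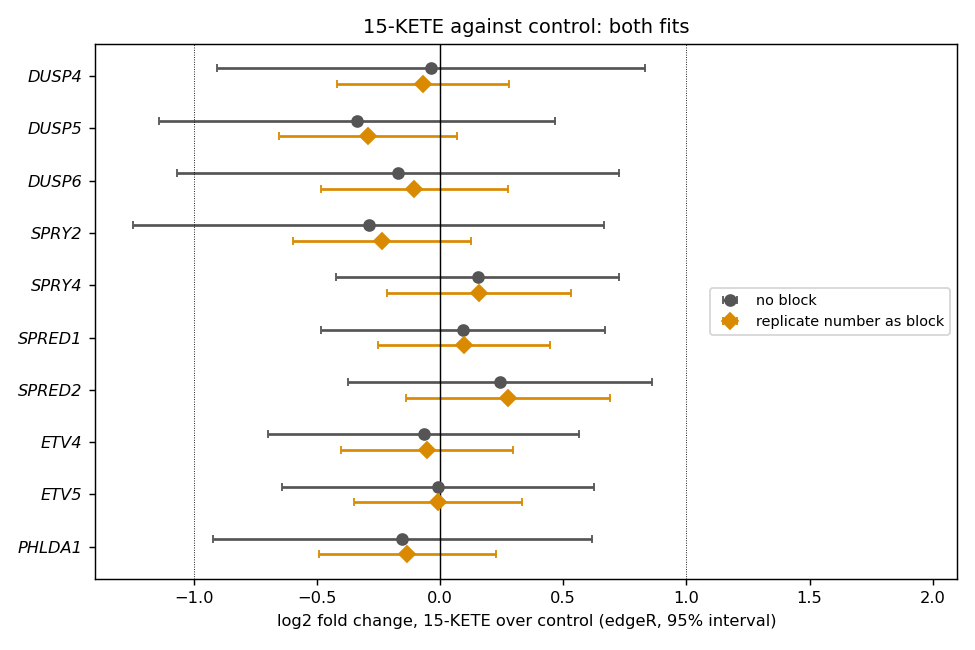
Log2 fold change of 15-KETE over control for the 10 genes with 95% intervals, from edgeR without (circles) and with (diamonds) the replicate number as a block; dotted lines mark 2-fold. All 20 intervals include 0, and those with the block are narrower, from -0.65 at the lowest bound (DUSP5) to 0.69 at the highest (SPRED2).

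Same-numbered libraries of both groups deviated from their group means in similar ways, so the fit was repeated with the replicate number as a block. It too called 0 of 10 genes, as for 0% of all genes, and at an unadjusted p below 0.05 it had 0 of 10, against 4.71% of all genes. The members' smallest adjusted p was 0.695, for DUSP5. The blocked intervals of all 10 genes lay within 2-fold in either direction, as they did for 78.5% of all genes, while without the block 7 of 10 did, against 50.7%. The blocked interval of DUSP5 ran from 0.636 to 1.05 times the control level, that of SPRY2 from 0.660 to 1.09 times and that of SPRED2 from 0.910 to 1.61 times. For DUSP6 it ran from 0.716 to 1.21 times, and for ETV5 from 0.785 to 1.26 times. Control replicate 2 had more reads in short genes, by a log2 trend of 0.39 at the exon length of DUSP5 (2535 bases) and 0.26 at that of SPRY2 (3213 bases), against -0.26 at that of SPRED1 (7750 bases). With that trend removed from each library, the blocked log2 fold changes were -0.15 for DUSP5, -0.15 for SPRY2 and 0.25 for SPRED2.

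Some of the 10 genes differed between replicate numbers. In a test of the replicate number within the blocked fit (edgeR's quasi-likelihood test over all genes), 5 of 10 passed: SPRY2 (adjusted p = 0.0028), DUSP4 (0.00454), DUSP6 (0.00599), DUSP5 (0.00984) and PHLDA1 (0.0131). ETV5 (adjusted p = 0.0509) and ETV4 (0.0617) lay just outside the threshold, and SPRED1, SPRY4 and SPRED2 had 0.172, 0.293 and 0.360. Of all genes 33.4% passed, so that a large part of the transcriptome moved with the number. No label says what a replicate number stands for. Other values moved with the number too: KRT7 stood at 315 FPKM in 15-KETE and 442 FPKM in control replicate 2, against 135 to 171 FPKM in the other 4 libraries, and CD14 at 8.55 and 7.92 FPKM, against 3.30 to 4.25 FPKM. The part of cell state, depth or exon length in these differences was not tested, beyond the length correction given below.

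Replicate 2 was higher than replicate 1 for 4 of the 10 genes, where 8.36% of all genes passed in this direction. SPRY2 was 2.49-fold higher (log2 1.32 ± 0.207, SE, edgeR adjusted p = 0.00494), DUSP6 2.30-fold (1.20 ± 0.216, 0.00725), DUSP4 2.27-fold (1.182 ± 0.1996, 0.00668) and PHLDA1 1.84-fold (0.88 ± 0.204, 0.0165). No member passed as lower, against 8.85% of all genes. PHLDA1 was also higher in replicate 3 than in replicate 1, by 1.76-fold (log2 0.81 ± 0.204, edgeR adjusted p = 0.0453), the only one of the 10, where 2.95% of all genes passed, and none was lower, against 1.16%. In replicate 3 against replicate 2, DUSP5 (log2 -1.02 ± 0.205, edgeR adjusted p = 0.00424), SPRY2 (-0.78 ± 0.204, 0.0132) and ETV4 (-0.61 ± 0.198, 0.0326) were lower, 3 of 10 against 17.2% of all genes, and none was higher, against 17.6%.

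These calls depended on single libraries, since each number has only 2. Without 15-KETE replicate 1, 3 of 10 passed, DUSP5, DUSP6 and SPRY2 (19.96% of all genes), and without control replicate 1 only DUSP5 and SPRY2 did (18.0%). Without control replicate 3 there were 4 of 10 (14.8%), and without 15-KETE replicate 3 the same 5 genes (28.9%). Without 15-KETE replicate 2 all 10 passed (67.0%), and without control replicate 2 there were 9, all but SPRED2 (52.2%); a number left with 1 library is taken there to vary like the others. With the correction for exon length the same 5 genes and ETV5 passed (36.7%).

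The members fell into more than one pattern across libraries. Both replicate 1 libraries were the 2 lowest for DUSP4, DUSP6, SPRY2 and PHLDA1, 4 of 10 genes, where 11% of all genes had this order. Both replicate 3 libraries were the 2 lowest for DUSP5, ETV4 and ETV5, 3 of 10 against 22.1%. SPRED1 had both replicate 2 libraries as its 2 lowest, 1 of 10 against 21.8%, and both replicate 3 libraries as its 2 highest, 1 of 10 against 22.1%. Both replicate 2 libraries were the 2 highest for DUSP4, DUSP6, SPRY2 and ETV4, 4 of 10 against 22.1%, and both replicate 1 libraries for SPRY4 and ETV5, 2 of 10 against 11.6%. Counting either end, 9 of 10 genes had same-numbered libraries together as the 2 lowest or the 2 highest, near the 77.4% of all genes; SPRED2 was the exception.

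**Figure D3:**
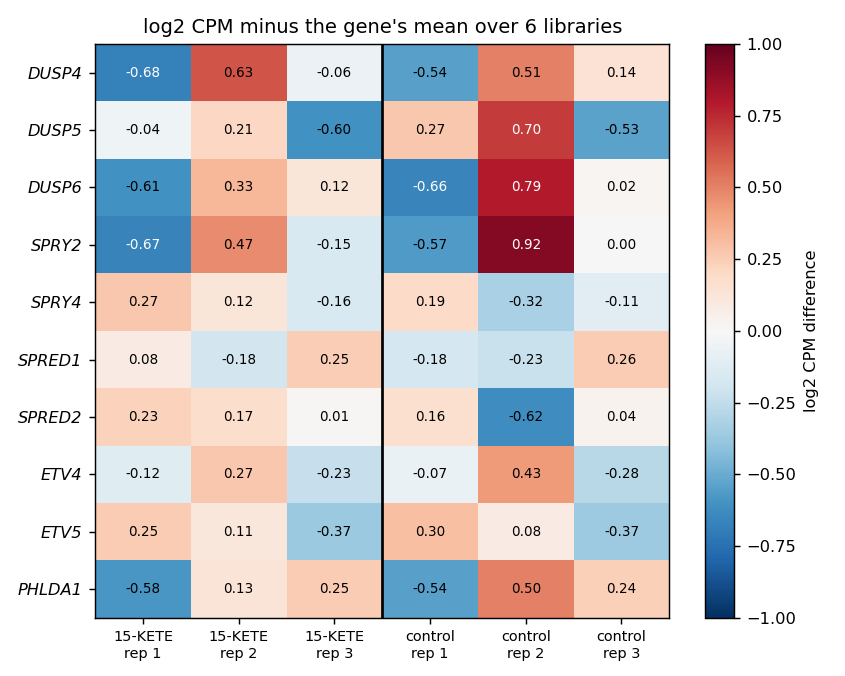
Log2 CPM of each gene minus its mean over the 6 libraries, 15-KETE libraries left of the line and control libraries right of it, from -1 (blue) to 1 (red). DUSP4, DUSP6, SPRY2 and PHLDA1 are blue in both replicate 1 columns, at -0.68 to -0.54, and red in both replicate 2 columns, at 0.13 to 0.92.

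Other genes of the pathway were read from 3 lists: 21 genes of the cascade itself, 13 further genes of the DUSP, SPRY, SPRED, ETV and PHLDA families, and 15 other genes that ERK raises. None of the 21 tested cascade genes, 12 tested family genes or 14 tested output genes passed in either direction between 15-KETE and control, with or without the block, against 0% of all genes. DUSP2 and EPHA4 had too few counts to be tested. The median log2 fold changes were 0.15 for the cascade (15 of 21 above 0), -0.18 for the families (5 of 12) and -0.09 for the output genes (5 of 14), against -0.00177 for all genes. Without control replicate 2 all 3 medians turned sign, to -0.0407 for the cascade, 0.0236 for the families and 0.147 for the output genes. Within same-numbered pairs 1, 2 and 3 the cascade medians were 0.00937, 0.357 and 0.0240, so that the cascade's shift lay mostly in pair 2.

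In the cascade, the genes of smallest p included HRAS, a RAS GTPase (log2 fold change -0.71 ± 0.497, SE), and the scaffold KSR1 (0.31 ± 0.28), each with an edgeR adjusted p of 0.9996. HRAS had 25.7, 43.3 and 25.3 CPM in 15-KETE libraries and 31.2, 96.8 and 25.9 CPM in controls. The high value was that of control replicate 2, which had more reads in short genes, and HRAS has 2431 bases of exon. The part of exon length in this value was not tested. With the block, 3 of 21 cascade genes had an unadjusted p below 0.05, against 4.71% of all genes: HRAS (log2 fold change -0.50), the RAS activator SOS1 (0.43) and the RAS inactivator NF1 (0.45), each with an edgeR adjusted p of 0.695. SOS1 had 95.04, 50.8 and 125 CPM in 15-KETE libraries and 73.0, 27.2 and 122 CPM in controls, and NF1 had 153, 102 and 179.7 CPM against 121, 50.8 and 178 CPM. Both were higher in 15-KETE in 3 of 3 pairs and lowest in control replicate 2. SOS1 and NF1 have 22984 and 41150 bases of exon, and the part of exon length in their values was not tested.

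Among the output genes, those of smallest p were the urokinase receptor PLAUR (log2 fold change -0.36 ± 0.361, SE), the stress-induced IER3 (-0.40 ± 0.431) and the uridine phosphorylase UPP1 (-0.34 ± 0.406), each with an edgeR adjusted p of 0.9996. Between replicate numbers 8 of 14 passed, against 33.4% of all genes. The cyclin gene CCND1, chosen here after its values were seen with FOS, MYC and EGR1, had 68.6, 301 and 223 CPM in 15-KETE replicates 1 to 3 and 77.1, 255 and 237 CPM in the controls. It was 3.82-fold higher in replicate 2 than in replicate 1 (log2 1.93 ± 0.209, SE, edgeR adjusted p = 0.000879). FOS, an immediate early factor, had 5.70, 22.3 and 44.1 CPM in 15-KETE libraries and 6.35, 20.4 and 28.2 CPM in controls, and MYC 96.2, 202 and 138 against 108, 266 and 139.7 CPM. EGR1, also an immediate early factor, ran the other way, with 330.5, 104 and 208 CPM in 15-KETE libraries and 342, 106 and 153 CPM in controls, and was lower in replicate 2 than in replicate 1 by a log2 difference of -1.68 ± 0.214 (SE, edgeR adjusted p = 0.00186). Thus both replicate 1 libraries held low CCND1, FOS, MYC, DUSP4, DUSP6, SPRY2 and PHLDA1 beside high EGR1. EGR1 was not alone: both were also above every other library for the members SPRY4 and ETV5 and the output gene EREG. EREG had 122, 95.7 and 102 CPM in 15-KETE replicates 1 to 3 and 110, 85.4 and 97.8 CPM in the controls. Of the other output genes, FOSL1, JUNB and IER3 were lowest in both replicate 1 libraries. EREG, FOSL1 and JUNB were chosen here after their values were seen.

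**Figure D4:**
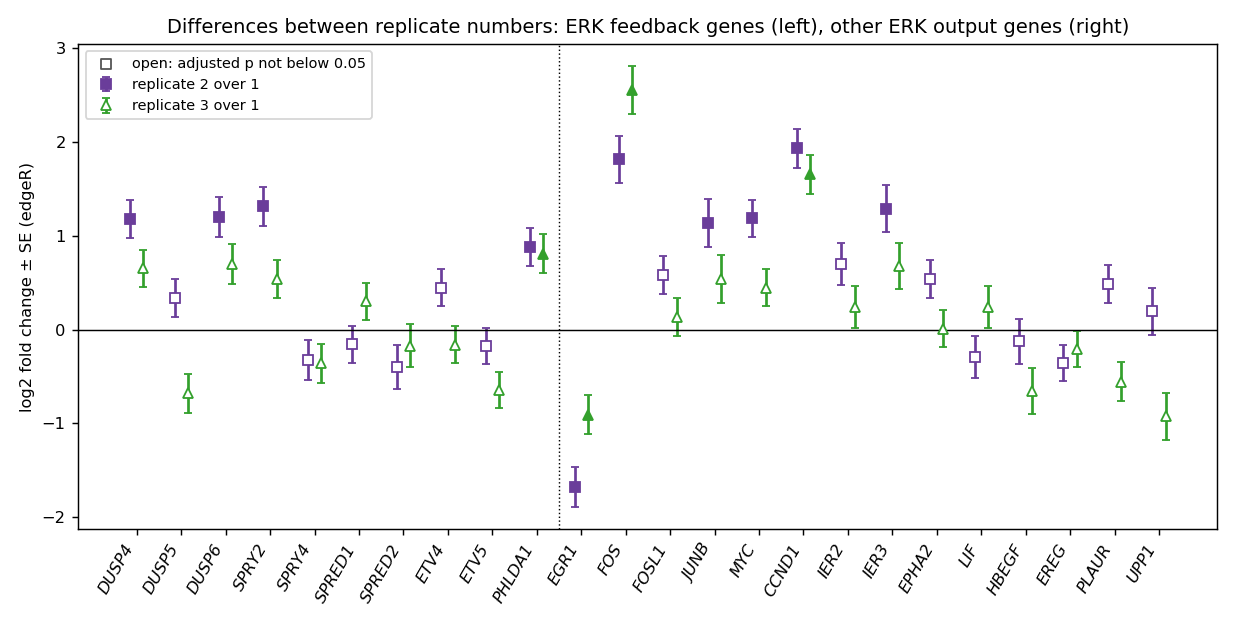
Log2 fold changes ± SE between replicate numbers, from edgeR with group and number in the model, for the 10 feedback genes (left of the dotted line) and the 14 tested output genes (right); squares give replicate 2 over 1, triangles 3 over 1, and filled symbols an adjusted p below 0.05. DUSP4, DUSP6, SPRY2 and PHLDA1 lie between 0.88 and 1.32 for replicate 2 over 1, CCND1 at 1.93 and EGR1 at -1.68.

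**Figure D5:**
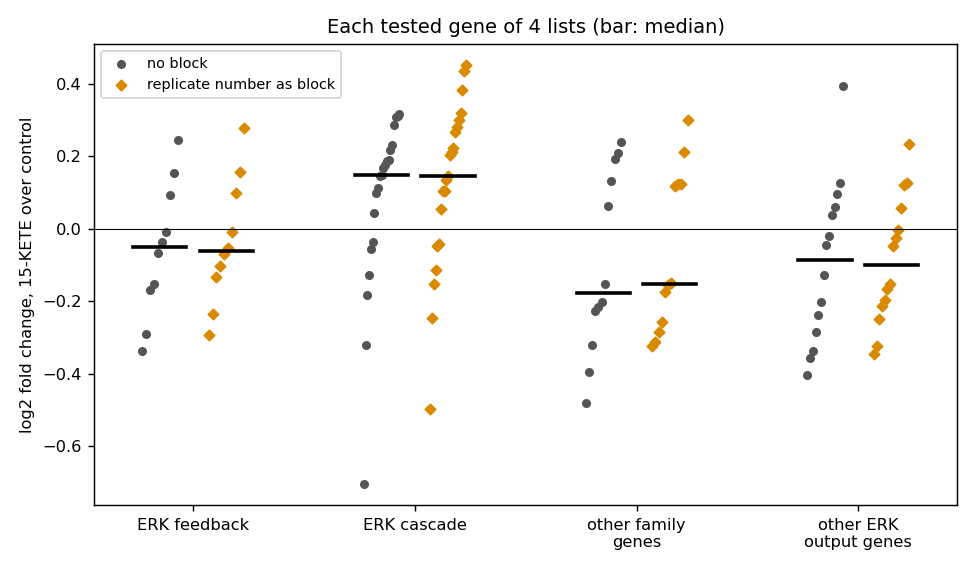
Log2 fold change of 15-KETE over control for each tested gene of the 4 lists, without (circles) and with (diamonds) the replicate number as a block, with the median as a bar. The medians lie between -0.18 and 0.15 and the feedback genes between -0.34 and 0.28.

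The genes outside these lists whose levels over the 6 libraries were most like the mean standardised profile of the 10 members, among 13820 genes of at least 1 CPM, were GNPNAT1 (Pearson r = 0.997), TINAGL1 (0.996), LIPA (0.989), KCNK5 (0.989) and PVR (0.988). The profile they matched was highest in 15-KETE and control replicate 2, at 0.483 and 0.377 SD units, and between -0.247 and -0.163 in the other 4 libraries. It averages members of opposite pattern and describes no single one: over the 6 libraries SPRY2 and DUSP6 had r = 0.967, but DUSP5 and SPRED1 -0.953, and SPRY4, SPRED1 and SPRED2 had their lowest CPM in control replicate 2. These values describe 6 libraries that share replicate numbers, and the 5 genes are the highest of many. Their log2 fold changes between 15-KETE and control lay between -0.0076 and 0.11.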

How the data were processed

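Counts and FPKM of 6 BEAS-2B libraries were taken from 1 deposited table of 61806 Ensembl genes. The count values are whole reads per gene as the authors deposited them, with no scaling. The FPKM values were deposited by the authors, and 100% lay within 0.01 of FPKM recomputed from count, exon length and library total. Per the submitters' processing notes, the tools included HISAT2 2.2.1 and HTSeq 0.6.1 beside StringTie 1.3.3b, Cufflinks 2.2.1, cutadapt 1.9.1, edgeR 3.4.6 and DESeq2 1.6.3, with no roles stated. Not given in the sources used here are the build and the strand setting. Of 58254 genes shared with GENCODE 29 (GRCh38), 89.6% had the same start or end, and coordinates are printed as in the table.

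The tests used edgeR 4.0.16 in R 4.3.3: filterByExpr, TMM scaling, robust quasi-likelihood fits and Benjamini-Hochberg adjustment over 15451 genes at 0.05. The procedure was tested on simulated data, in which most genes differed less between replicate numbers than here. A minimum of recovered changes was set for the blocked fit and for the test of the replicate number. None was set for the fit without the block, so the simulation does not vouch for its power. No simulated library stood apart as control replicate 2 does, so the simulation does not cover that case. Fold changes are 15-KETE over control. DESeq2 1.42.0 and limma 3.58.1 (voom, and trend on log2 of FPKM plus 1 or 0.1) served as alternatives, beside other scaling, filters, an exon length correction and omission of libraries. The length correction subtracted from each library a lowess trend (span 0.3) of log2 CPM on log2 exon length. Titles number both groups 1 to 3. Deviations from group means correlated at 0.570, 0.646 and 0.722 for same-numbered libraries, so these were treated as pairs. The other correlations were -0.564 to -0.0917. Deviations cancel out within a group, so positive values for same-numbered libraries bring negative values for others. The negative values are therefore no further evidence of pairing. No libraries were identical, and the closest, both of replicate 3, differed by a chi-square of 2.39 per gene. By this measure 15-KETE replicate 2 was further from control replicate 2 (113) than from control replicate 1 (39.7). Control replicate 2 was further still from every other library, at 147 or more. Members, lists and tests were chosen with earlier results of these data known. The named genes are the 10 members, the 3 genes of smallest p in each list and the 5 of most similar profile, and others are said to be chosen after their values were seen. Some results of single genes in the lists are not reported here. Promoter sequences are from RefSeq, GRCh38.p14. No protein sequence was used here.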

Additional observations from a re-analysis of the deposited data

How the results depend on the processing

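No member passed between 15-KETE and control under any of the 20 alternatives, where the smallest adjusted p was 0.499 (SPRED2, replicate block, without both replicate 3 libraries). The replicate block changed no call of a member, and no gene of the 3 other lists was called under an alternative. Over all genes, 0 were called under each alternative except the replicate block without both replicate 1 libraries (1 gene) and without both replicate 3 libraries (12 genes). DUSP5, SPRY4 and SPRED2 kept the sign of their log2 fold change throughout. The cause of the following shifts was not tested. The sign turned without scaling (DUSP4 0.0554, ETV4 0.0293, ETV5 0.0676), on log2(FPKM + 1) (0.0111, 0.0258, 0.0676) and on log2(FPKM + 0.1) (0.00952, 0.0272, 0.0717). It also turned with the length correction (SPRED1 -0.00323, ETV4 0.0155), with replicate block and length correction (-0.00152 and 0.0153), and in the blocked fit without both replicate 1 (ETV5 0.0260), replicate 2 (DUSP6 0.0700) or replicate 3 libraries (DUSP4 0.0151, ETV5 0.0127). Leaving out single libraries gave DUSP4 -0.437 to 0.242, DUSP6 -0.438 to 0.283, SPRY2 -0.643 to 0.220, SPRED1 -0.0135 to 0.287, ETV4 -0.237 to 0.164, ETV5 -0.151 to 0.160 and PHLDA1 -0.385 to 0.0794.

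The members' median moved to -0.0760 with the length correction, 0.0424 without scaling, 0.0184 and 0.0183 on both FPKM scales and -0.0142 in the blocked fit without both replicate 2 libraries, and ranged from -0.238 to 0.0688 without single libraries. Over all genes the median was -0.0134 with the length correction and 0.0720 without scaling. On log2(FPKM + 1) and log2(FPKM + 0.1) it was 0.0433 and 0.0776, so the members' median lay below that of all genes in these settings. The median of the other family genes was -0.111 with the length correction, -0.0840 with replicate block and length correction, -0.0835 without scaling, -0.0465 and -0.0570 on FPKM and -0.0168 without both replicate 2 libraries, and ranged from -0.1696 to 0.0236. That of the output genes ranged from -0.276 to 0.147, and that of the cascade from -0.0407 to 0.305. With the length correction the median was 0.00247 for the output genes and 0.0852 for the cascade. Without scaling it was 0.00143 for the output genes and 0.210 for the cascade. Between replicate numbers 2346 to 10707 genes and 2 to 10 members passed when single libraries were left out. Of the alternatives for that test, the length correction and the omissions were chosen after seeing the data, and the same 5 members passed under both other scalings and both other filters.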

Other observations

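Relatives of the feedback genes also differed between replicate numbers, with 6 of 12 tested family genes past the threshold by edgeR, against 33.4% of all genes. The phosphatase gene DUSP1, which acts mainly on p38 and JNK, had 53.7, 103 and 73.4 CPM in 15-KETE replicates 1 to 3, against 67.3, 137 and 63.0 CPM in controls (adjusted p = 0.0101 for the number). SPRY1 had 2.85, 5.88 and 5.91 CPM in 15-KETE libraries and 3.95, 6.70 and 6.52 CPM in controls, low in both replicate 1 libraries as SPRY2 was (edgeR adjusted p = 0.0385). DUSP8 was high in them, at 4.62 and 5.71 CPM in 15-KETE and control replicate 1, against 1.82 to 2.86 CPM in the other 4 libraries (edgeR adjusted p = 0.0154). ETV1, the third factor of the PEA3 group, had 27.0, 20.3 and 32.9 CPM in 15-KETE libraries and 22.9, 15.8 and 38.1 CPM in controls (edgeR adjusted p = 0.0156). PHLDA2 and PHLDA3 peaked in control replicate 2, at 33.4 and 26.6 CPM, against 9.47 to 16.3 and 8.74 to 14.9 CPM elsewhere. That library had more reads in short genes, and PHLDA2 and PHLDA3 have 920 and 3243 bases of exon. The part of exon length in their values was not tested. PHLDA2 and PHLDA3 were named by their p in the list, and the other genes were chosen after their values were seen.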
